A study of Monodelphis domestica with 6 samples.

Results

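The smooth-muscle type contractile genes are 10 genes listed by symbol, namely ACTA2, ACTG2, TAGLN, CNN1, CNN2, MYL9, TPM1, TPM2, CALD1 and MYH11. All 10 had a row among the 35665 genes of the files. Their expression was compared between neonatal skin fibroblasts (neoSFs) of the opossum Monodelphis domestica and the induced pluripotent stem cells reprogrammed from them (monoiPSCs). The files were the authors' estimated read counts per gene and their log2 values after DESeq normalization. A normalized read count (NRC) below is a library's count times the 1 scaling factor that the authors applied to that library.

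There were 2 neoSF libraries, 1 from each of the wild-type inbred strains FD2M1 and LSD1, from skin of 10-day-old female pups grown for 3 to 4 passages in a fibroblast medium with serum and left untreated. There were 4 monoiPSC libraries, from FD2M1 and LSD1 at passage 15 and passage 25 each, and the monoiPSC libraries of a strain are called its line below. They are wild type too, and were made by nucleofecting the fibroblasts with episomal plasmids for human OCT4, SOX2, NANOG, KLF4, LIN28 and cMYC, and a dominant-negative p53 plasmid was used as well. The picked colonies were grown on Matrigel in a feeder-free medium with LIF, bFGF and a ROCK inhibitor, an agent that blocks a kinase acting on myosin. The labels do not say whether both passages of a strain are 1 clone, so the p-values measure the spread between these libraries, which may be technical. The neoSF libraries were read in-house with short single-end reads and the monoiPSC libraries with paired-end reads by a sequencing service. Cell type, medium and sequencing run therefore cannot be told apart.

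Total counts were 14278794 to 16982978 in the neoSF libraries and 28684754 to 35564261 in the monoiPSC libraries. A count of 3 corresponded to an NRC of 4.75 to 5.85 in neoSFs and 1.55 to 1.88 in monoiPSCs. All 9 fibroblast markers measured reached an NRC of 20 in each neoSF library, and their summed NRC was 1660480 to 1780220 in neoSFs against 17863 to 19555 in monoiPSCs. The sum is mostly COL1A1, and 8 of the 9 also reached an NRC of 20 in each monoiPSC library. Of the 9 markers, 8 were lower in monoiPSCs by the test given next and 1, FBLN1, was higher, against 21.6% and 24.3% of all genes tested. All 6 pluripotency markers reached it in each monoiPSC library. Genes were tested with the edgeR quasi-likelihood F test when the NRC reached 20 in each neoSF library or in each monoiPSC library, which left 13072 genes. Differential expression (DE) meant a change of 2-fold or more with p no higher than 0.05 after Benjamini-Hochberg adjustment over these genes. All 10 contractile genes were tested, and all of them reached an NRC of 20 in the neoSFs, whereas 7 did so in the monoiPSCs. The edgeR test gives no standard error. The one printed with its values is the log2 fold change without its sign, divided by the square root of F, and is an approximation.

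Smooth muscle cells shorten when myosin heads pull on actin filaments. The pull is switched on by phosphorylation of the regulatory light chain of myosin, and tropomyosin, calponin and caldesmon sit along the filament and regulate it. Fibroblasts that form stress fibers use many of the same genes, which are classical targets of serum response factor (SRF) and its myocardin-family partners. Most of these genes have a paralog that non-muscle cells use in general.

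Most of the contractile genes, among them ACTA2, TAGLN, TPM1, CALD1 and MYL9, were far lower in the monoiPSCs than in the fibroblasts. The genes were chosen with earlier results of these data known, and ACTA2, ACTG2 and CNN1 passed the NRC filter only through the neoSFs. For these genes the filter itself favoured a lower call. Of the 10 genes, 8 were DE and lower in monoiPSCs and 0 were DE and higher, while 21.6% of all genes tested were DE and lower and 24.3% DE and higher. Over all genes this was 2824 lower and 3176 higher, and with total counts as the scaling 1931 lower and 4786 higher, while the count of 8 among the contractile genes did not change. In the same 8 genes both neoSF libraries lay above all 4 monoiPSC libraries, which was so for 37.1% of all genes tested. The reverse, with both neoSF libraries below, was seen in 0 of the 10 genes and in 36.1% of all genes tested. The median log2 fold change of the 10 genes was -5.12, and that of all genes tested was 0.08. Together the 10 genes took 1.27% and 1.75% of all counts in the neoSF libraries of FD2M1 and LSD1, against 0.0302% to 0.05% per monoiPSC library. TPM2 and MYH11 were the 2 genes that were not DE.

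**Figure D1:**
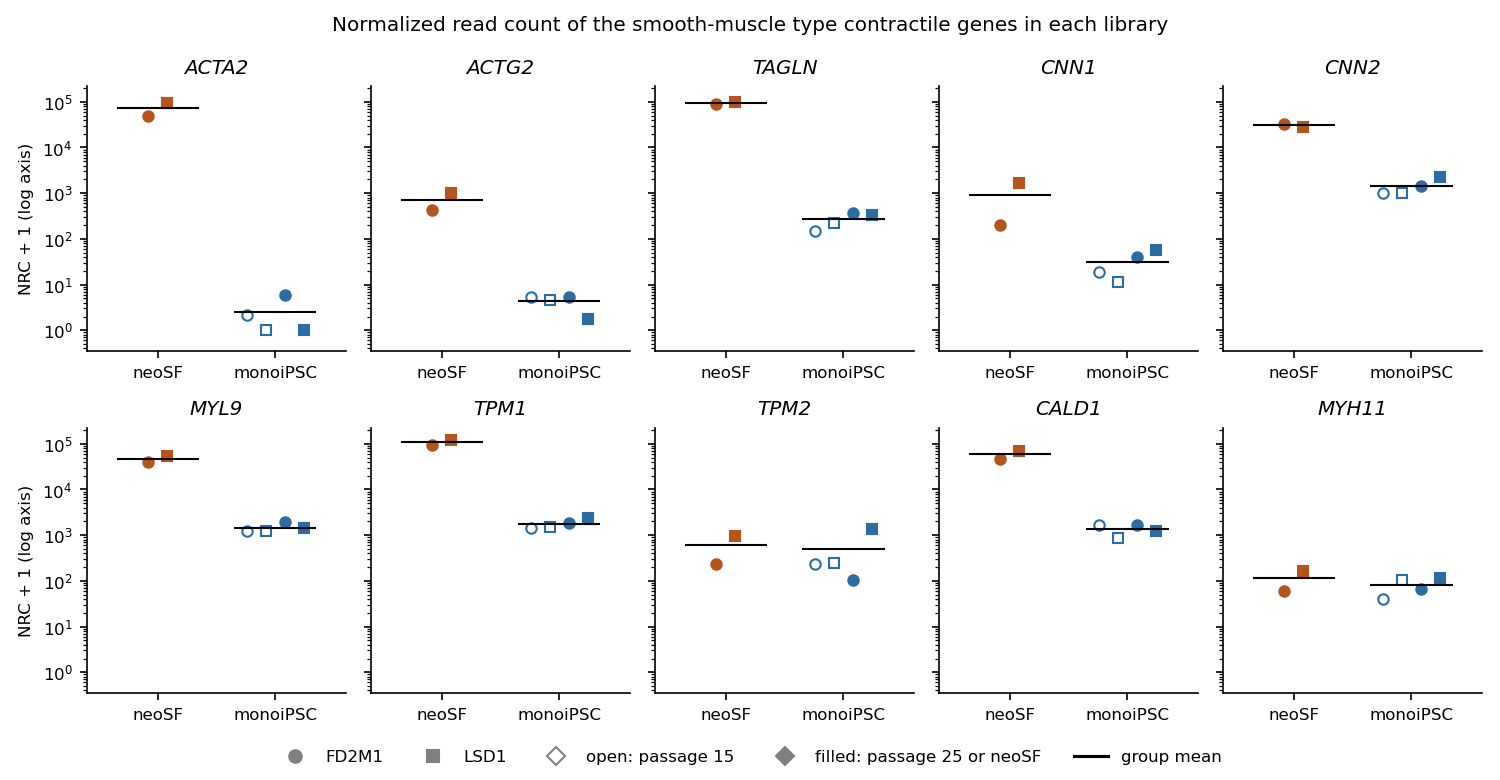
NRC plus 1 on a log axis for each of the 10 genes, with neoSF libraries in orange and monoiPSC libraries in blue. Circles are FD2M1, squares are LSD1, open symbols are passage 15, filled blue symbols are passage 25, and the line is the group mean. The 2 groups are apart for 8 genes and overlap for TPM2 and MYH11.

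ACTA2 (gene 100012397, chromosome 1 of MonDom5) encodes smooth muscle alpha-actin, the actin of vascular smooth muscle and of myofibroblasts. Its NRC was 48571 in FD2M1 and 96297 in LSD1 neoSFs. Among monoiPSCs the counts before normalization were 2 and 8 for FD2M1 at passages 15 and 25, and 0 in both LSD1 libraries. Both LSD1 monoiPSC libraries and the FD2M1 library at passage 15 were therefore at the detection floor of 3 counts. Against 3 counts, and taking a count as 1 fragment, ACTA2 was at least 61038-fold lower in LSD1 monoiPSCs at passage 15 than in LSD1 neoSFs, and at least 62295-fold lower at passage 25. The log2 fold change over all 6 libraries was -15.47 (standard error 0.84, adjusted p = 1.72e-05, edgeR), and the standard error from DESeq2 was 1.88. The edgeR log2 fold change was -17.21 without the FD2M1 library at passage 25, which held 8 of the 10 counts.

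ACTG2 (gene 100012779, chromosome 1) encodes smooth muscle gamma-actin, the main actin of visceral smooth muscle. Its NRC was 421 and 1012 in the FD2M1 and LSD1 neoSFs. At passage 15 the monoiPSC values were 4.37 in FD2M1 and 3.68 in LSD1, and at passage 25 they were 4.39 and 0.773. The lower neoSF library lay 95.8-fold above the highest monoiPSC library. ACTG2 was DE at -7.61 on the log2 scale (standard error 0.55, adjusted p = 4.37e-05, edgeR), and it was -6.83 without the LSD1 neoSFs and -8.11 without the FD2M1 neoSFs. The coding sequences of the actin genes are very alike, and the counts are fractional after a filter on reads with several matches, so the division of reads between actin genes is uncertain, more so for the short reads of the neoSFs.

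TAGLN (gene 100025576, chromosome 4) encodes transgelin, also called SM22-alpha, an actin-bundling protein and an early marker of smooth muscle differentiation. Its NRC was 89286 in the FD2M1 and 96834 in the LSD1 neoSFs. At passage 15 the monoiPSC values were 147 in FD2M1 and 223 in LSD1, and at passage 25 they were 367 and 330. The neoSF libraries were close to each other, and each was at least 243-fold above every monoiPSC library. TAGLN was DE at -8.35 on the log2 scale (standard error 0.40, adjusted p = 1.27e-05, edgeR).

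CNN1 and CNN2 encode calponins, which bind actin and slow the ATPase of myosin. CNN1 (gene 100010492, chromosome 3), the calponin of differentiated smooth muscle, had an NRC of 203 in FD2M1 and 1631 in LSD1 neoSFs. The FD2M1 and LSD1 monoiPSCs had 18.0 and 10.6 at passage 15 and 38.7 and 54.8 at passage 25. The FD2M1 neoSFs thus lay only 3.71-fold above the highest monoiPSC library. CNN1 was DE at -4.82 on the log2 scale (standard error 0.86, adjusted p = 0.00222, edgeR). Its size rested on the LSD1 neoSFs, without which it was -2.63 (adjusted p = 0.0238).

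CNN2 (gene 100022611, chromosome 3), the calponin found more widely outside smooth muscle, was more even between the strains. Its NRC was 33380 in the FD2M1 and 28241 in the LSD1 neoSFs. The FD2M1 and LSD1 monoiPSCs had 1033 and 984 at passage 15 and 1430 and 2215 at passage 25. CNN2 was DE at -4.35 on the log2 scale (standard error 0.34, adjusted p = 5.75e-05, edgeR). Unlike ACTA2 and ACTG2, CNN2 remained far above an NRC of 20 in every monoiPSC library, as did TAGLN, MYL9, TPM1 and CALD1.

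MYL9 (gene 100028971, chromosome 1) encodes the regulatory light chain of smooth muscle myosin, the subunit that myosin light chain kinase phosphorylates. Its NRC was 39028 and 54420 in the FD2M1 and LSD1 neoSFs and, in monoiPSCs, 1212 and 1243 at passage 15 and 1905 and 1437 at passage 25. The lowest neoSF library was 20.5-fold above the highest monoiPSC library. MYL9 was DE at -4.92 on the log2 scale (standard error 0.25, adjusted p = 1.51e-05, edgeR).

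TPM1 and TPM2 encode tropomyosins, the coiled-coil proteins that lie along actin filaments. Both genes make muscle and non-muscle isoforms, which are summed in the gene counts. TPM1 (gene 100016737, chromosome 1) had an NRC of 95743 and 120527 in the FD2M1 and LSD1 neoSFs and, in monoiPSCs, 1419 and 1526 at passage 15 and 1854 and 2385 at passage 25. The groups were apart, and TPM1 was DE at -5.82 on the log2 scale (standard error 0.26, adjusted p = 1.11e-05, edgeR). CALD1 (gene 100016414, chromosome 8), which encodes caldesmon, an inhibitor of actin-activated myosin that is also spliced into a muscle and a non-muscle form, had an NRC of 47057 and 70361 in the same neoSFs. In the monoiPSCs of FD2M1 and LSD1 it was 1712 and 873 at passage 15 and 1666 and 1249 at passage 25. The groups did not overlap, and CALD1 was DE at -5.32 on the log2 scale (standard error 0.32, adjusted p = 2.49e-05, edgeR).

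TPM2 (gene 100020343, chromosome 6), the beta-tropomyosin of smooth and skeletal muscle, did not separate the groups. Its NRC was 236 in the FD2M1 and 952 in the LSD1 neoSFs. At passage 15 the monoiPSC values were 230 in FD2M1 and 245 in LSD1, and at passage 25 they were 102 and 1380. The highest value of the 6 libraries was thus a monoiPSC library, LSD1 at passage 25, and so was the lowest, FD2M1 at passage 25. TPM2 was at -0.19 on the log2 scale (standard error 1.02, adjusted p = 0.879, edgeR), and a change of 2-fold in either direction lies within 2 standard errors of this value. Without LSD1 at passage 25 it was -1.55 (adjusted p = 0.0724), and with total counts as the scaling it was 0.30.

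The TPM2 level of the monoiPSC libraries had the same order as the summed level of their skeletal muscle markers, but not of every marker. The summed NRC of the 6 markers measured (MYOD1, MYOG, MYF5, MYF6, DES and ACTA1) was 3320 and 2094 in the FD2M1 monoiPSCs at passages 15 and 25, and 6771 and 20001 in those of LSD1. DES, the muscle intermediate filament desmin, had an NRC of 4213 in LSD1 at passage 25 and of 315 to 769 in the other 3 libraries. ACTA1, the skeletal muscle actin, had 9645 there and 754 to 1765 in the others. MYOD1 was also highest there, at 591, but was slightly higher in FD2M1 than in LSD1 at passage 15, at 103 and 99.4. MYF5 ran the other way, with 1.03 in LSD1 at passage 25 and 3.16 to 8.94 in the others. In the neoSFs the order was the opposite, with a summed NRC of 1801 in FD2M1, where TPM2 was lower, and 438 in LSD1. MYF6 was at 0 counts in both neoSF libraries. The part of muscle-like cells in the TPM2 level was not tested, and in these bulk libraries a difference in the number of such cells and in the RNA of each cell cannot be told apart.

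**Figure D2:**
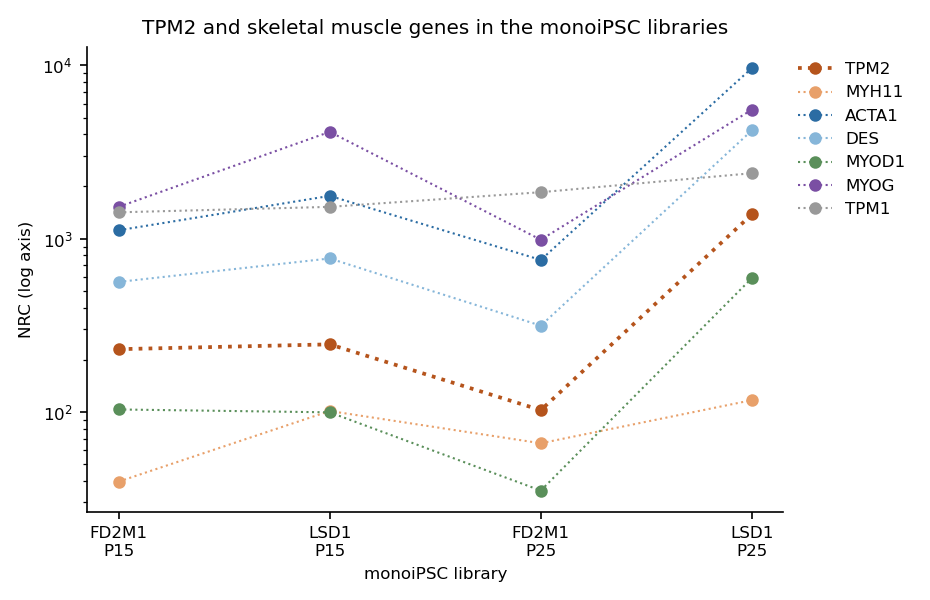
NRC on a log axis of TPM2, TPM1 and MYH11 and of 4 skeletal muscle markers in the 4 monoiPSC libraries. Dotted lines only join the values of 1 gene. TPM2, ACTA1, DES and MYOD1 are highest in LSD1 at passage 25 and lowest in FD2M1 at passage 25, while TPM1 stays between 1419 and 2385.

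MYH11 (gene 100016741, chromosome 6) encodes smooth muscle myosin heavy chain, a marker of mature smooth muscle. Its NRC was 60.3 and 166 in the FD2M1 and LSD1 neoSFs, and, in the monoiPSCs, 39.6 and 101 at passage 15 and 65.9 and 117 at passage 25. The groups overlapped, and both LSD1 monoiPSC libraries were above both of FD2M1. MYH11 was at -0.40 on the log2 scale (standard error 0.55, adjusted p = 0.552, edgeR), and with total counts as the scaling it was 0.12. MYOCD, the smooth muscle partner of SRF, had 0 and 4 counts in the neoSF libraries and 1 to 4 counts in the monoiPSC libraries, and was not tested. No cell type is read from the contractile genes alone.

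The paralogs of the general, non-muscle type were mixed. Of the 10 measured, 4 were DE and lower, 1 was DE and higher and 5 were not DE, and their median on the log2 scale was -0.80. Over all genes tested 21.6% were DE and lower, 24.3% DE and higher, and 7072 of 13072 not DE. A mix is thus not particular to the paralogs. Both neoSF libraries lay above all 4 monoiPSC libraries for ACTG1, CNN3, MYL12B, TPM3, TPM4, MYH9 and MYH10, and below them for TAGLN3. The groups overlapped for ACTB and TAGLN2. Over all genes tested the neoSF libraries lay above in 37.1% and below in 36.1%. The difference between the paralogs and the contractile genes was not tested as a set. ACTB, the cytoplasmic beta-actin, had a log2 fold change of 0.05 (adjusted p = 0.883, edgeR), whose sign turned with RLE scaling to -0.01. ACTG1, cytoplasmic gamma-actin, fell by 1.17 on the log2 scale (standard error 0.17, adjusted p = 0.000984, edgeR). MYL12B, a non-muscle regulatory light chain, had -1.51 (adjusted p = 0.000453). With total counts as the scaling ACTG1 had -0.64 and MYL12B -0.99, both below the 2-fold threshold. TPM4 had -2.33 (adjusted p = 0.000145) and MYH9, the main non-muscle myosin heavy chain, -3.21 (adjusted p = 6.79e-05), both from the same edgeR fit.

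Values under the fold threshold were found for CNN3 at -0.76, MYH10 at -0.84, TPM3 at -0.59 and TAGLN2 at -0.49 on the log2 scale. Their adjusted p-values were 0.00259, 0.00371, 0.0155 and 0.213 (edgeR). Under the alternatives the adjusted p rose to at most 0.163 for CNN3, 0.134 for MYH10 and 0.714 for TPM3. The sign of TAGLN2 turned with total counts as the scaling, to 0.02. TAGLN3, the neuronal transgelin, was at 0 counts in both neoSF libraries and had a mean NRC of 527 in the monoiPSCs. It was at least 90.0-fold higher in monoiPSCs than the floor of 3 counts (adjusted p = 0.000305, edgeR).

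**Figure D3:**
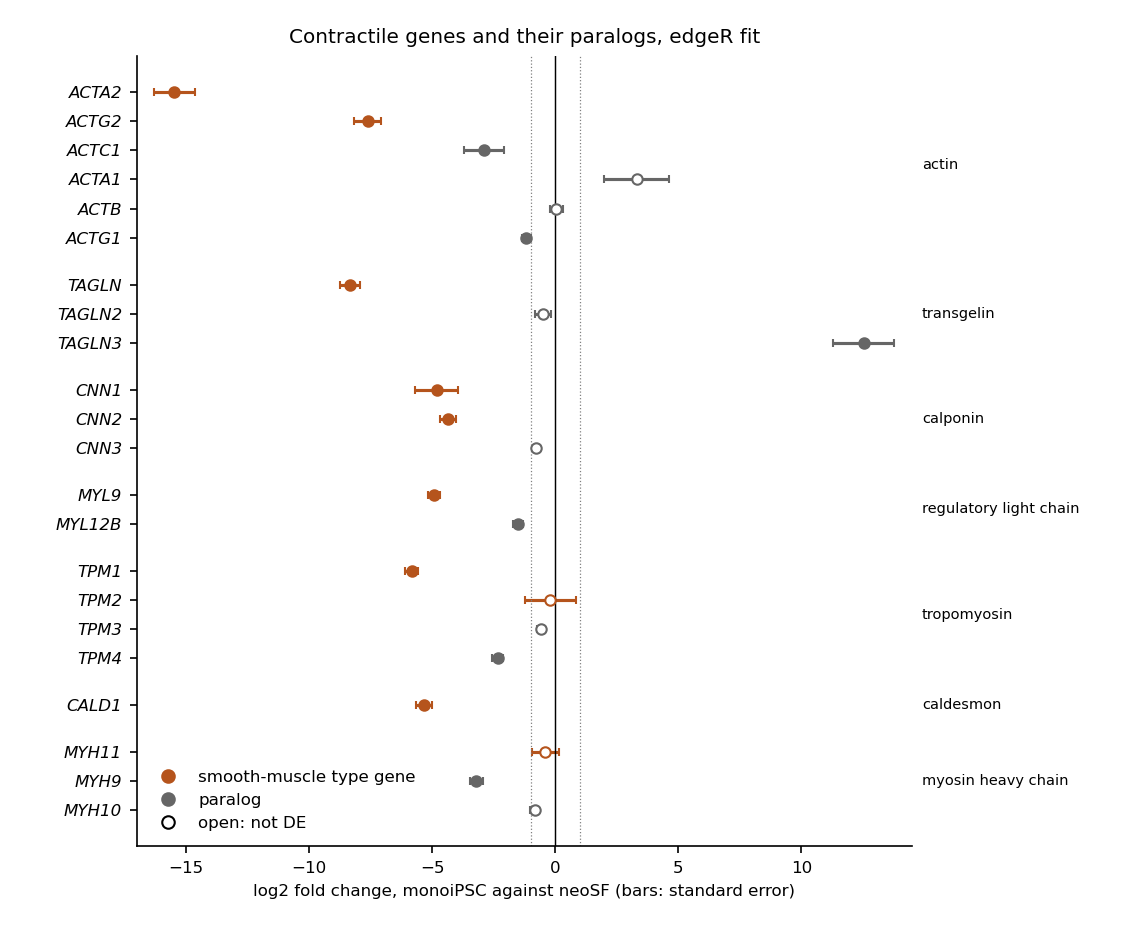
Log2 fold change of monoiPSCs against neoSFs with its standard error, for the contractile genes in orange and their paralogs in grey, by family. Filled points are DE, and dotted lines mark a 2-fold change. The point of TAGLN3 depends on the fit because its neoSF counts are 0. ACTA2 at -15.47 and TAGLN at -8.35 lie far from ACTB at 0.05 and TAGLN2 at -0.49.

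The counts of each gene were also given as a share of the counts of the measured genes of its family, which does not depend on the scaling of libraries. This description was chosen after the levels had been seen, and because transcripts differ in length a share is one of reads and is compared only between libraries. In the transgelin family TAGLN took 91.7% and 87.7% of the counts in the FD2M1 and LSD1 neoSFs, and 1.77% to 4.45% in the monoiPSCs, where TAGLN2 took 88.1% to 92.0%. TAGLN3 took 3.96% to 8.72% in the monoiPSCs. ACTA2 took 20.4% and 36.5% of the counts of 6 actin genes in the neoSFs and at most 0.00642% in a monoiPSC library. ACTG1 took 52.6% to 68.6% in neoSFs and 73.7% to 87.7% in monoiPSCs.

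Among the calponins CNN2 took 65.5% to 74.0% in neoSFs and 13.1% to 23.7% in monoiPSCs, and the rest was almost all CNN3. TPM1 took 58.0% and 65.0% of the tropomyosin counts in neoSFs and 6.74% to 12.4% in monoiPSCs, while TPM3 took 4.22% to 6.35% and 28.0% to 35.2%. Of the 2 regulatory light chains measured, MYL9 took 90.4% and 94.5% in neoSFs and still 49.0% to 60.8% in monoiPSCs, and MYL12B the rest. MYL12A, a further light chain of this family, and MYH14 of the heavy chains had no row. Their counts are missing from these shares, which may be too high for the genes measured. MYH11 took less than 1% of the myosin heavy chain counts in every library, with 0.864% at most.

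**Figure D4:**
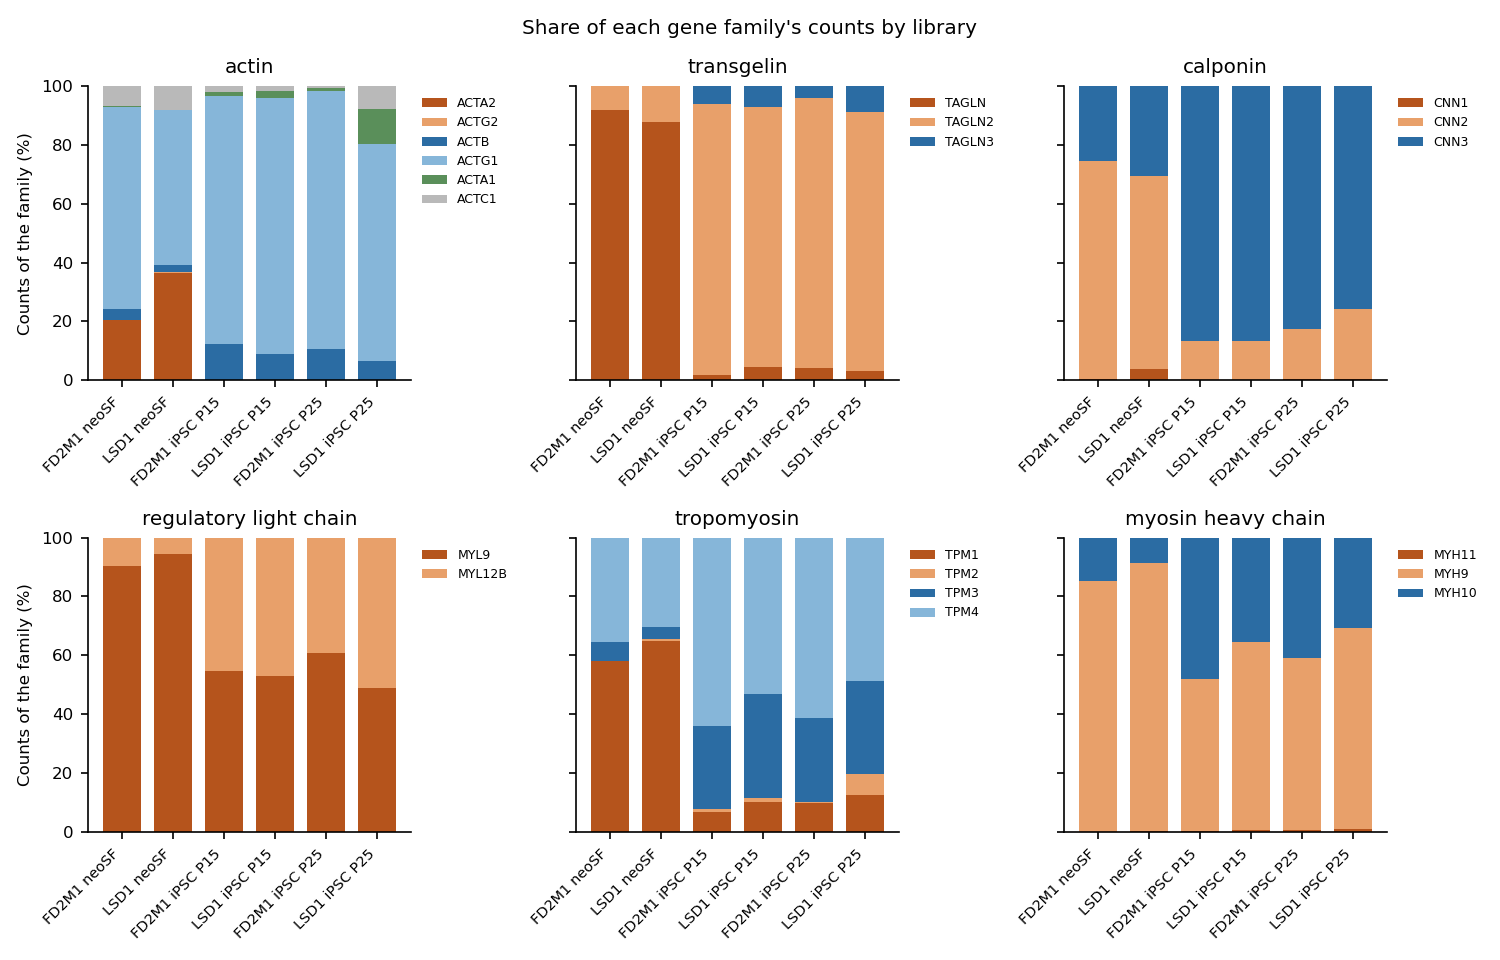
Share in percent of the counts of each gene family taken by each gene, 1 bar per library. TAGLN, TPM1, CNN2 and ACTA2 take much of the neoSF bars and little of the monoiPSC bars. MYL9 still takes 49.0% to 60.8% of the light chain bars in monoiPSCs, which hold MYL9 and MYL12B only.

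The monoiPSC libraries were also compared with each other. Of the 7 contractile genes that reached an NRC of 20 in each of these libraries, TAGLN, CNN2, MYL9, TPM1 and MYH11 were higher at passage 25 than at passage 15 in both lines. That is 5 of 7 genes, and it was so for 29.0% of the 12252 genes with such a level. For TAGLN the log2 difference was 0.93 (standard error 0.30), for CNN2 0.81 (standard error 0.20) and for TPM1 0.50 (standard error 0.15). None of the 7 genes passed the test between passages, which had strain as a covariate and called 0.0% of all genes (edgeR, lowest adjusted p = 0.359 for CNN2). At an unadjusted p under 0.05 there were 3 of the 7, against 9.35% of all genes, and DESeq2 called 0 of the 7 and 0.939% of all genes.

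Between the lines, CALD1 was lower in LSD1 than in FD2M1 at both passages, by -0.69 on the log2 scale (standard error 0.19). MYH11 was higher in LSD1, by 1.08 (standard error 0.36). Neither passed the test with passage as a covariate, in which the lowest adjusted p of the 7 genes was 0.234 for CALD1 and 0.0% of all genes were called (edgeR). At an unadjusted p under 0.05 there were 2 of the 7 genes, against 14.2% of all genes, and DESeq2 called 0 of the 7 and 1.57% of all genes.

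Between the 2 neoSF libraries, 9 of the 10 genes were higher in LSD1 than in FD2M1, which was so for 47.2% of all genes tested. CNN1 was 8.02-fold, TPM2 4.03-fold, MYH11 2.76-fold and ACTG2 2.41-fold higher in LSD1. ACTA2 was 1.98-fold higher and TAGLN 1.08-fold. A difference of at least 2-fold in this direction was seen in 4 of the 10 genes and in 7.59% of all genes tested. CNN2 was the gene that was lower in LSD1, at 0.846 of the FD2M1 level. With 1 library per strain these differences have no replicate check. Whether the change to monoiPSCs differed between the strains was tested with an interaction term, for which the spread is that between passages of a line. On simulated data this edgeR fit recovered only 49 of 200 genes that were given a log2 difference of 2. A missing call therefore does not show that the strains changed alike. ACTA2 had 0 counts in both LSD1 monoiPSC libraries and 2 and 8 in those of FD2M1, so its estimate in this test depends on the fit. ACTG2, with at most 7.79 counts in a monoiPSC library, was also near the floor of 3 counts. The term had estimates from -6.11 for ACTA2 to 0.60 for CNN2 on the log2 scale. It called 0 of the 10 genes (edgeR, lowest adjusted p = 0.342 for ACTA2) and 0.0841% of all genes, with 3 of the 10 at an unadjusted p under 0.05, against 9.13% of all genes. DESeq2 called 0 of the 10 and 2.33% of all genes.

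Genes related to the contractile genes, among them regulators that need not act in the same direction, were read from lists. For this list and those that follow, the shares over all genes tested were 21.6% DE and lower and 24.3% DE and higher. Of 20 genes of the smooth muscle apparatus, 15 could be tested, of which 11 were DE and lower and 0 higher (median on the log2 scale -3.36). CSRP1, a LIM protein of smooth muscle, was DE at -7.55 on the log2 scale (standard error 0.31, adjusted p = 8.94e-06, edgeR), with a mean NRC of 27493 in neoSFs and 137 in monoiPSCs. LMOD1, the smooth muscle leiomodin that nucleates actin filaments, had -5.92 (adjusted p = 2.86e-05), and KCNMB1, the beta subunit of the large-conductance potassium channel, -5.76 (adjusted p = 1.27e-05), both from the same edgeR fit. Among the genes that were not DE were DES at 1.42, CASQ2 at 1.88 and SYNPO2 at -0.36, of which SYNPO2 turned positive with total counts as the scaling. DES was at -0.01 without the LSD1 monoiPSCs at passage 25.

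The next list holds genes that add phosphate to the light chain or remove it, and regulators of these. Of 16 genes tested, 8 were DE and lower and 0 DE and higher, with a median of -1.005. With total counts as the scaling 4 were DE and lower, since PPP1R12A, ROCK2, ARHGEF12 and PRKG1 were then under 2-fold, and 1, CAMK2G, was DE and higher. MYLK, the myosin light chain kinase, was DE at -4.05 on the log2 scale (standard error 0.25, adjusted p = 2.84e-05, edgeR). CDC42BPA, a myosin-directed kinase, had -2.31 and DAPK3, which phosphorylates the light chain without calcium, -2.14, both DE. ROCK1 had -0.14 (adjusted p = 0.468) and RHOA, the GTPase upstream of it, -0.40 (adjusted p = 0.104), and both turned positive with total counts as the scaling.

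SRF itself was at 0.19 on the log2 scale (standard error 0.17, adjusted p = 0.346, edgeR), with a mean NRC of 4659 in neoSFs and 4977 in monoiPSCs. Of its partners, MKL2, now called MRTFB, was DE at -1.74 (adjusted p = 0.000113). MKL1, now called MRTFA, had 0.55, under the 2-fold threshold, and with total counts as the scaling it was DE and higher at 1.07. Among 14 genes tested of the SRF list, 7 were DE and lower and 0 DE and higher. Besides MKL2, the lower genes were GATA6 at -5.77, KLF4 at -4.81, PRRX1 at -4.70, WWTR1 at -2.55, ELK4 at -1.71 and TEAD1 at -1.61. The genes that were not DE, beside SRF and MKL1, were ELK1 at -0.56, ELK3 at 0.37, TEAD3 at -0.83, YAP1 at -0.33 and SMAD3 at 0.81. Of these, YAP1 turned positive and SMAD3 became DE with total counts as the scaling.

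Focal adhesions anchor the stress fibers to the matrix. Of 24 genes tested, 18 were DE and lower and 0 DE and higher, with a median of -2.39. The lowest were TNS1, or tensin, at -5.80, LIMS2 at -5.76 and ANXA2 at -5.72, each with an adjusted p of at most 4.98e-05 (edgeR). Among the genes that were not DE were PXN, VASP, LIMS1, TES and CAV1. CAV1, caveolin-1, had -1.29 (adjusted p = 0.0686) and was DE and lower with DESeq2, with limma and without the LSD1 monoiPSCs at passage 25.

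**Figure D5:**
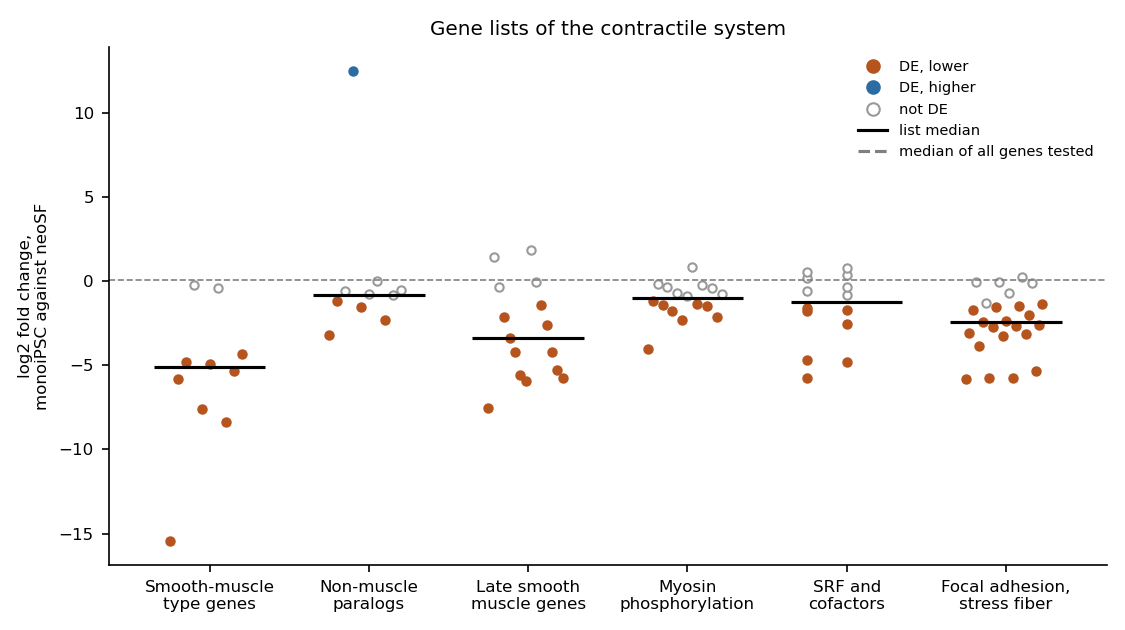
Log2 fold change of each tested gene in 6 of the lists (the striated paralogs are not drawn), with DE lower genes in orange, DE higher genes in blue and genes that are not DE as open circles. Black lines are the medians of the 6 lists drawn, from -5.12 for the smooth-muscle type genes to -0.80 for the non-muscle paralogs, and the dashed line is the median of all genes tested, 0.08.

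The genes most like the contractile genes were sought by the Pearson correlation of log2 values with the mean of the 10 genes over the 6 libraries. Among 10339 named genes with a mean NRC of at least 100 in either group, KLF6, HSPB7, SNX2, UBE2W and HBP1 had the highest values, of 0.9989 to 0.9992. HSPB7, a small heat shock protein of muscle, had an NRC of 2261 and 4125 in the FD2M1 and LSD1 neoSFs and of 14.0 to 28.2 in the monoiPSCs. KLF6, a zinc-finger transcription factor, had 3940 and 5232 in neoSFs and 545 to 696 in monoiPSCs. A high correlation does not mean a change of like size. SNX2 was at -0.77 on the log2 scale, under the 2-fold threshold, and HBP1 at -1.35. With 2 groups of libraries a high correlation reflects mostly the difference between groups, and 164 genes were above 0.99.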

How the data were processed

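RNA of 2 neoSF and 4 monoiPSC libraries was measured. Per the labels and methods, the authors aligned reads to MonDom5 with StrandNGS, filtered them on quality and multiple mapping, and deposited estimated counts per RefSeq gene. The deposited estimated counts were fractional in 85.5% of nonzero values (tolerance 0.0001) and were rounded for the fits. The deposited log2 values are these counts times 1 factor per library, on the log2 scale, but an NRC under 1 stands there as 0. One case is ACTG2 in the LSD1 monoiPSCs at passage 25, with an NRC of 0.773. Such zeros enter the limma fit and the correlation with the mean of the 10 genes. Fits used edgeR 4.0.16 with TMM scaling, and as alternatives DESeq2 1.42.0 and limma 3.58.1 on the log2 values (R 4.3.3), with other scalings, filters, the strain as a block and each library left out. Scripts were tested on simulated data. The members and lists were chosen with earlier results of these data known. The text names the 10 members, all measured non-muscle paralogs and SRF-list genes, the 3 DE genes with the largest change in each direction of each other list, and the 5 genes most alike. Genes outside this rule were named after their values were seen. They are markers of skeletal muscle, fibroblasts and pericytes, genes of a list that were not DE and genes whose call turned. Strain pairs each line with the fibroblasts of its own strain. Strain differences correlated by 0.0773 (passage 15) and -0.00175 (passage 25) across genes between neoSFs and monoiPSCs. No transcript lengths were used, so levels of different genes are not compared, and promoter and protein sequences were not used here. Counting floors cover counting error only. Some genes of the lists are counted but not reported by name here.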

Additional observations from a re-analysis of the deposited data

Results flagged for a closer look

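TPM2 in the LSD1 monoiPSCs at passage 25 had an NRC of 1380, far from the other 3 monoiPSC libraries, which lay between 102 and 245. The gap to the nearest library was 0.888 of the range of the 4 libraries, above the critical value of 0.829. This rule used NRC and not log2 values, on which the gap is a smaller part of the range. The log2 values were 7.85 and 6.68 in FD2M1 at passages 15 and 25, and 7.94 and 10.43 in LSD1. The flag thus depends on the scale. On the NRC scale, LSD1 at passage 25 for TPM2 was the single library to stand apart among the 10 genes, and chance gives about 1 such case in 20 groups. The summed NRC of the 6 skeletal muscle markers was also highest in this library, at 20001, mostly from ACTA1, MYOG and DES, while MYF5 was lowest there, at 1.03. Their part in the TPM2 value was not tested.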

How the results depend on the processing

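Under each of 13 alternatives (RLE and total count scaling, DESeq2, limma, 2 other filters, the strain as a replicate block, and leaving out each of 6 libraries), 8 of the contractile genes were DE and lower and 0 were DE and higher. The block on strain changed no call of the 10 genes. With total counts as the scaling the median log2 fold change of all genes tested moved from 0.08 to 0.61, and DE genes numbered 1931 lower and 4786 higher in place of 2824 and 3176. The number of DE and higher genes over the lists was then 7 in place of 3. The genes with no call changed sign. TPM2 was 0.30 and MYH11 0.12 with total counts, and leaving out 1 library in turn gave -1.55 to 1.15 for TPM2 and -0.95 to 0.52 for MYH11. Among the list genes, leaving out 1 library ended the calls of ACTC1, MYL1, MYL4, CSRP2, PPP1R14A and FLNC. The order of the genes by level per length was not run, for want of transcript lengths here, and the promoter motifs were not analysed. The depth limits ACTA2 and ACTG2 in the monoiPSCs, where a library held at most 8 counts.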

Other observations

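The striated muscle paralogs of these genes were tested for 5 genes. ACTC1, the cardiac muscle actin, had an NRC of 16344 and 21468 in the FD2M1 and LSD1 neoSFs and of 630 to 6418 in the monoiPSCs, highest in LSD1 at passage 25. It was DE and lower at -2.89 on the log2 scale (standard error 0.82, adjusted p = 0.0172, edgeR), and the adjusted p was 0.0593 without the LSD1 neoSFs. MYL4, an atrial light chain, was also DE and lower at -2.04 (adjusted p = 0.0218), a call that was lost under 4 alternatives. MYL1, a light chain of fast skeletal muscle, was DE and higher at 2.96 (adjusted p = 0.0368), and 4 libraries left out in turn each ended the call. MYH6, a cardiac myosin heavy chain, was DE and higher (adjusted p = 0.0036), but its neoSF counts were 0 and 2.25, at the floor of 3 counts, so its fitted value of 6.29 depends on the fit and ran from 5.45 to 10.70 under the alternatives. ACTA1 had 3.31 (adjusted p = 0.0611), which was DE and higher under 4 alternatives (total counts, DESeq2, limma and without the FD2M1 monoiPSCs at passage 25). Actin genes are near-identical, and the values of ACTC1 and ACTA1 are uncertain.

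Pericytes, the contractile cells of small vessels, share several of the genes above. Of 7 pericyte markers, 5 were tested, of which 2 were DE and lower and 3 DE and higher, against 21.6% and 24.3% of all genes tested. PDGFRB had an NRC of 13516 and 15975 in the neoSFs and at most 410 in a monoiPSC library, and CSPG4 was also lower. The higher genes were NOTCH3 (mean NRC 1134 in neoSFs and 2213 in monoiPSCs), ABCC9 (40.9 and 139) and MCAM (177 and 1389). RGS5, a defining marker, had an NRC of 4.88 and 6.24 in the neoSFs and 6.59 to 42.8 in the monoiPSCs and was not tested. Its neoSF values were 2.5 and 3.94 counts, near the floor of 3 counts. KCNJ8, not tested either, went the other way, with an NRC of 22.1 and 15.8 in the neoSFs and 2.06 to 5.62 in the monoiPSCs. The part of such cells in the values of the neoSFs was not tested.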
